A study of Homo sapiens with 2 samples.

Results

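Pairs of TARBP2-bound regions that face away from or towards each other on opposite strands, without overlapping, were examined in MDA-LM2 cells. The pairs were chosen by the positions and strands of the regions themselves: on chromosomes 1 to 22 the regions of both strands were sorted by start, and each region was compared with the next. Neighbours on opposite strands with 0 to 5000 nt between them were kept. A minus-strand region followed by a plus-strand region made a divergent pair, in which the 5′ ends face each other across the gap. A plus-strand region followed by a minus-strand region made a convergent pair, in which the 3′ ends face each other. This gave 668 pairs, of which 340 were divergent and 328 convergent. They held 1246 of the 22514 regions on these chromosomes (5.53%, 95% exact binomial interval 5.24 to 5.84%), and 90 of these regions belonged to a pair of each class.

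TARBP2 binds double-stranded RNA and works with the nuclease Dicer in the making of microRNAs. MDA-LM2 is a human breast cancer line derived from MDA-MB-231 and selected for spread to the lung. The single group, in 2 replicates, received a myc-tagged TARBP2 vector by transient transfection, so the protein followed was the tagged, added one. After 48 hours the cells were cross-linked with UV light and the RNA bound to the tagged protein was recovered with an anti-myc antibody and sequenced (HITS-CLIP). The replicates share 1 deposited list of stranded regions on hg19 in which each region has a score of 1. Nothing in the labels says that the replicates were separate cultures. Height, depth and replicate error are unknown, no control library was used here, and the cell line could not be checked against marker genes.

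In the human genome, many genes start back to back from a shared promoter and are transcribed away from each other, which is called a bidirectional promoter. Other neighbouring genes run towards each other and end close together, and their transcripts can be complementary at the 3′ ends. RNA made from both strands of the same stretch can form the double strands that TARBP2 binds. The regions were not placed on genes here, because no hg19 annotation or genome entered the work, so neither promoters nor gene ends were identified, and no sequences are printed.

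Opposite-strand pairs were a small part of close neighbours. Among all 6341 neighbours 0 to 5000 nt apart, 668 lay on opposite strands (10.5%, 9.79 to 11.3%) and 5673 on the same strand. From 101 nt the opposite-strand share was higher at larger gaps, except that it was lower in the last range within the limit than in the one before. It was 4.36% (3.10 to 5.93%) at 101 to 250 nt, 6.07% (4.60 to 7.85%) at 251 to 500 nt, 7.24% (5.74 to 8.99%) at 501 to 1000 nt and 9.98% (8.40 to 11.8%) at 1001 to 2000 nt. It was 14.2% (12.0 to 16.6%) at 2001 to 3000 nt, 16.9% (14.2 to 19.8%) at 3001 to 4000 nt and 15.2% (12.4 to 18.5%) at 4001 to 5000 nt, and the last intervals overlap. Beyond the pairs kept here it was 22.4% (20.5 to 24.3%) at 5001 to 10000 nt and 38.4% (36.7 to 40.0%) at 20001 to 50000 nt. Under 101 nt all 32 neighbours were on opposite strands, 17 divergent and 15 convergent. This follows from the list itself, in which the smallest gap between same-strand neighbours was 101 nt. These intervals cover counting error only and take regions as independent, although regions cluster along the genome.

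The total numbers of divergent and convergent neighbours are tied to each other, because the 2 kinds of strand change alternate along a chromosome. At any gap, overlaps included, there were 3494 divergent and 3494 convergent neighbours, and they differed by at most 1 on any chromosome. What can differ is how far apart they lie. Of the divergent neighbours 104 overlapped, 340 were within the limit and 3050 lay farther apart. Of the convergent neighbours 48 overlapped, 328 were within the limit and 3118 lay farther apart. Members thus made up 9.73% (8.77 to 10.8%) of divergent and 9.39% (8.44 to 10.4%) of convergent neighbours, with overlapping intervals. Alternation ties the numbers at any gap, not these shares. Members are chosen by the rule, so the shares are given as a description with no test.

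At the limit, the widest divergent gaps inside it were 4983 nt on chromosome 17 (minus region 74718673 to 74718915) and 4989 nt on chromosome 1 (minus region 1208008 to 1208671). The nearest outside were 5002 nt on chromosome 1 (minus region 155654273 to 155654611) and 5005 nt on chromosome 14 (minus region 23401651 to 23401899). The widest convergent gaps inside were 4939 nt on chromosome 16 (plus region 87408825 to 87409072) and 4981 nt on chromosome 2 (plus region 86339548 to 86339755), and the nearest outside were 5004 and 5024 nt. No break in the gaps set the members apart from the pairs just beyond.

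Gaps had a median of 2168 nt in divergent pairs (quartiles 808 and 3525 nt) and of 1851 nt in convergent pairs (652 and 3057 nt). The medians per chromosome averaged 2264 ± 643 nt for divergent pairs (SD over 22 chromosomes) and 1911 ± 484 nt for convergent pairs (SD over the 21 chromosomes that had any). The median was larger for divergent pairs on 14 of these 21 chromosomes. Chromosomes with few pairs count as much as others in these means, and no test of the difference was made. Same-strand neighbours in the same range lay closer, with medians of 1158 nt on the minus strand (3428 neighbours) and 1121 nt on the plus strand (2245). A gap of up to 1000 nt was found in 27.9% of divergent pairs (23.2 to 33.0%) and 31.7% of convergent pairs (26.7 to 37.0%). Among same-strand neighbours within 5000 nt it was found in 46.0% on the minus strand (44.3 to 47.7%) and 46.9% on the plus strand (44.8 to 49.0%).

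Most ranges of gap held about equal numbers of each class, and a few did not. By steps of 1000 nt from 0, divergent pairs numbered 95, 62, 65, 63 and 55, and convergent pairs 104, 67, 68, 57 and 32. Beyond the first 1000 nt the divergent pairs were thus spread almost evenly over the range, while the last step held the fewest convergent pairs. At 101 to 250 nt there were 8 divergent and 30 convergent pairs, a divergent share of 21.1% (9.55 to 37.3%). Of the 30, 9 lay in 1 tandem array on chromosome 1 described below, and without it the numbers were 8 divergent and 21 convergent. At 4001 to 5000 nt there were 53 divergent and 32 convergent pairs, a divergent share of 62.4% (51.2 to 72.6%), and the array held none of them. The difference did not run over the whole range. In steps of 500 nt, 36 divergent and 10 convergent pairs had gaps of 4000 to 4499 nt, while 19 divergent and 22 convergent pairs had gaps of 4500 to 5000 nt. These ranges were picked out with these counts in view.

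**Figure D1:**
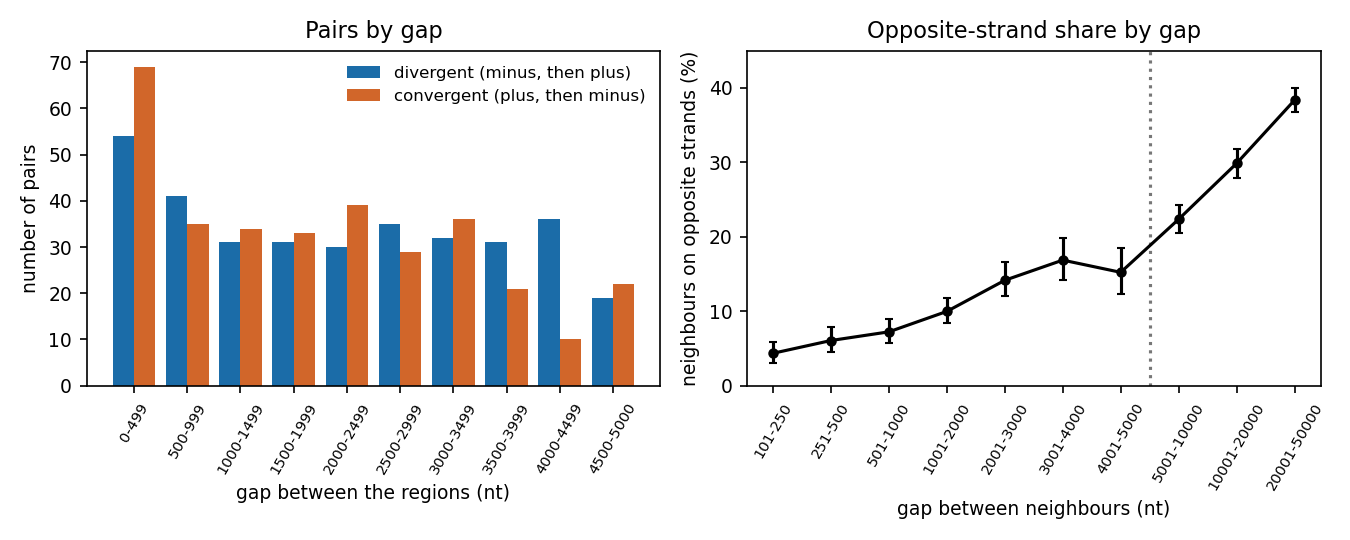
Left, number of divergent and convergent pairs in steps of gap of 500 nt; the first step holds 54 divergent and 69 convergent pairs, the step from 4000 nt holds 36 and 10, and the last step 19 and 22. Right, share of neighbouring regions that lie on opposite strands by gap (points, with 95% exact binomial intervals; the dotted line marks the limit of 5000 nt), which is 4.36% at 101 to 250 nt and 38.4% at 20001 to 50000 nt.

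For scale, the same rule was applied to the protein-coding genes of GENCODE 29 on chromosomes 1 to 22 of their own build, GRCh38, with the gap taken between gene bodies. Divergent pairs of regions were less crowded at short gaps than divergent genes, by an amount that depended on which genes were taken. Of the region pairs 27.9% were at most 1000 nt apart, against 74.1% (71.0 to 77.0%) of the 849 gene pairs, whose median gap was 190 nt. Over all annotated genes, non-coding ones included, the share was 52.5% (50.6 to 54.4%) of 2725 divergent gene pairs, with a median gap of 869 nt. In the convergent class the share was 31.7% of region pairs and 40.2% (37.3 to 43.1%) of the 1129 protein-coding gene pairs, whose median gap was 1412 nt. Over all annotated genes it was 31.7% (29.8 to 33.7%) of 2235 convergent gene pairs, with a median gap of 1945 nt, the same share as in region pairs. The genes include those that these cells do not transcribe, and a region can lie anywhere within a gene, so gaps between regions and gaps between gene starts are not the same quantity. Whether the pairs sit at gene pairs was not tested.

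**Figure D2:**
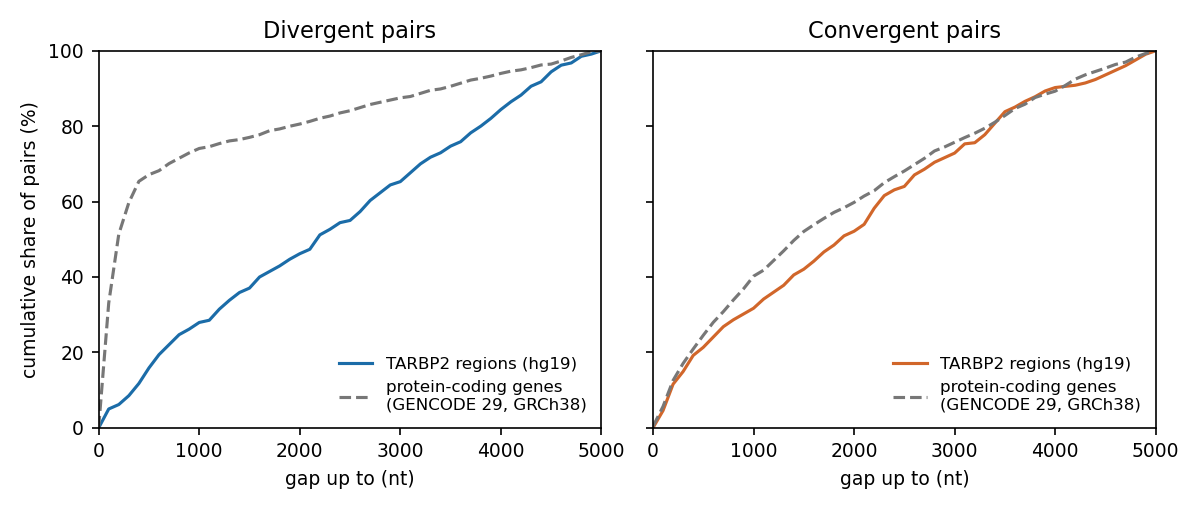
Cumulative share of pairs (%) by gap up to 5000 nt, for divergent pairs (left) and convergent pairs (right) of TARBP2 regions (solid) and of protein-coding genes of GENCODE 29 (dashed). Among divergent pairs, 27.9% of region pairs and 74.1% of gene pairs are at most 1000 nt apart, while the convergent curves lie closer together, at 31.7% and 40.2%.

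The divergent pairs with the smallest gaps lay on 4 chromosomes, and their regions were 154 to 314 nt long. On chromosome 4 a minus region of 263 nt (114400955 to 114401217) and a plus region of 209 nt (114401221 to 114401429) were 3 nt apart. On chromosome 7 a minus region (116729542 to 116729790) and a plus region of 154 nt (116729809 to 116729962) were 18 nt apart. Chromosome 10 had 2 of these pairs, with gaps of 23 nt (12026612 to 12027162) and 39 nt (79698638 to 79699110). On chromosome 20 the gap was 41 nt (2875298 to 2875805), between a minus region and a plus region of 218 nt. That pair belonged to a locus of 3 pairs, from 2872805 to 2878621.

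The convergent pairs with the smallest gaps included longer regions. The closest, on chromosome 6, had a plus region of 252 nt (34853862 to 34854113) and a minus region of 300 nt (34854123 to 34854422), 9 nt apart. The next, in the array on chromosome 1, had 2 regions of 930 nt (plus, 228753401 to 228754330) and 936 nt (minus, 228754347 to 228755282), 16 nt apart. Another pair on chromosome 6 had a gap of 17 nt (5650378 to 5650885). Gaps of 20 nt were found on chromosome 12 (1802100 to 1802757) and on chromosome 5 (138635671 to 138636565), where the plus region was 660 nt long and the minus region 215 nt.

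Regions in pairs were of ordinary length or slightly shorter. On the plus strand the median length was 250 nt in divergent pairs and 253 nt in convergent pairs, against 255 nt over all plus regions. On the minus strand the median in both classes equalled the most common length of the list, against 252 nt over all minus regions. The 90th percentile was 484 nt in divergent pairs, 566 nt in convergent pairs and 577 nt over all regions. In divergent pairs 11 regions (1.62%, 0.810 to 2.88%) were longer than 1000 nt, in convergent pairs 8 (1.22%, 0.528 to 2.39%), and over all regions 514 (2.28%, 2.09 to 2.49%). On the minus strand, the 90th percentile was 458 nt in divergent pairs, 569 nt in convergent pairs and 588 nt over all regions. On the plus strand the values lay closer, at 525, 547 and 561 nt. Plus regions longer than 1000 nt made up 2.06% in divergent pairs (0.832 to 4.20%) and 2.04% over all plus regions. For minus regions these shares were 1.18% (0.322 to 2.98%) and 2.44%. Outside the array on chromosome 1 the 90th percentile in convergent pairs was 516 nt for minus and 493 nt for plus regions. For both strands together it was 505.5 nt there, against 483 nt in divergent pairs outside the array.

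The most common length of the list was about as frequent in pairs as elsewhere on the same strand. Among minus regions it made up 29.4% in divergent pairs (24.6 to 34.6%) and 30.2% in convergent pairs (25.3 to 35.5%), against 27.0% of all minus regions (26.3 to 27.8%). Among plus regions it made up 6.76% in divergent pairs (4.34 to 9.98%) and 7.01% in convergent pairs (4.50 to 10.3%), against 8.20% of all plus regions (7.64 to 8.80%). Per chromosome, the share in pairs minus that in all regions averaged 3.26 ± 9.26 percentage points for minus regions and 0.356 ± 6.62 for plus regions (SD over 22 chromosomes). It was above 0 on 13 chromosomes for minus regions and on 10 for plus regions. The strand difference of the whole list thus also appeared within pairs, where the minus region more often than the plus region had this length whichever came first. Both regions had this length in 9 divergent and 6 convergent pairs, and neither had it in 226 and 212.

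**Figure D3:**
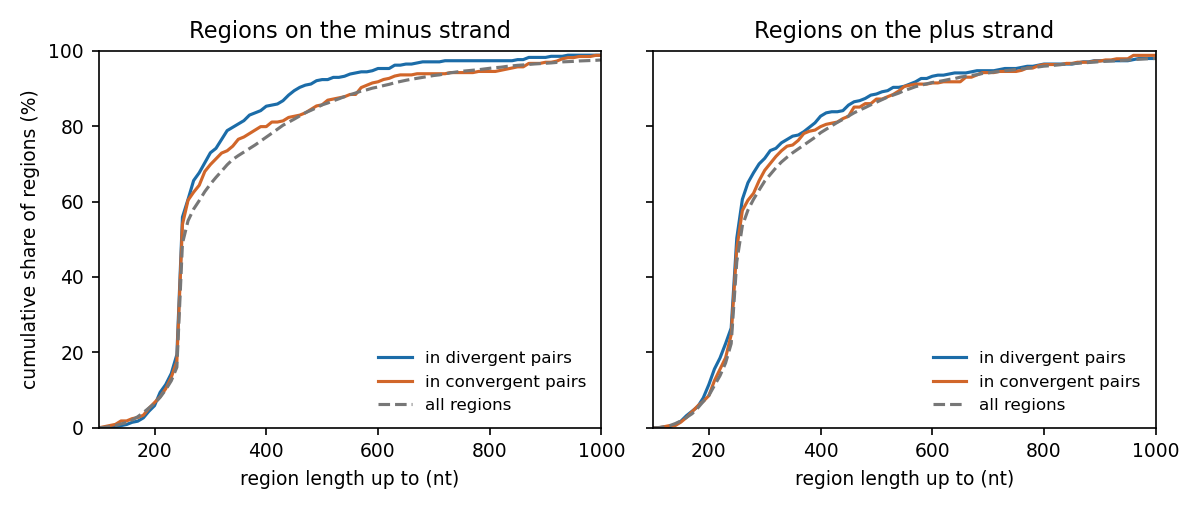
Cumulative share of regions (%) by length (nt) on the minus strand (left) and the plus strand (right), for regions in divergent pairs, in convergent pairs and for all regions; the axis ends at 1000 nt. The curves rise steeply at the most common length in each set. On the minus strand the 90th percentile is 458 nt in divergent pairs against 588 nt over all regions. On the plus strand it is 525 nt against 561 nt.

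The longer region of a pair was about as often the minus as the plus one. The minus region was the longer in 171 of 340 divergent pairs (50.3%, 44.9 to 55.7%) and in 158 of 328 convergent pairs (48.2%, 42.6 to 53.7%). Across pairs, the Spearman correlation of the minus and plus lengths was -0.14 in divergent pairs (n = 340) and 0.04 in convergent pairs (n = 328). Outside the array it was -0.15 and -0.06 (n = 337 and 313). The pairs come from 1 list, and some share a region. Both regions were longer than 500 nt in 1 divergent and 13 convergent pairs, of which 0 divergent and 3 convergent pairs lay outside the array. From far end to far end the median span was 2844 nt in divergent pairs (421 to 6688 nt) and 2548 nt in convergent pairs (508 to 5997 nt).

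In each divergent pair of the 5 with the largest summed length, 1 region was over 1000 nt long and the other under 500 nt. On chromosome 6 a minus region of 483 nt (31780661 to 31781143) was followed after 2273 nt by a plus region of 2161 nt (31783417 to 31785577). On chromosome 1 a minus region (161493459 to 161493707) was followed after 727 nt by a plus region of 2204 nt (161494435 to 161496638), the longest region of any pair. On chromosome 16 regions of 252 nt (minus, 89580592 to 89580843) and 2024 nt (plus, 89581357 to 89583380) were 513 nt apart. On chromosome 3 the plus region (49510194 to 49511877) was 1684 nt long and the minus region (49505205 to 49505453) had the most common length. On chromosome 5 the minus region was the long one, with 1671 nt (133311651 to 133313321), against a plus region of 225 nt.

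Among the convergent pairs of largest summed length, those on chromosomes 1 and 5 were made of 2 long regions. The pair on chromosome 5 had the largest summed length, with a plus region of 1010 nt (134260886 to 134261895) and a minus region of 930 nt (134262084 to 134263013), 188 nt apart. In the array on chromosome 1, beside the pair with a gap of 16 nt, a plus region of 951 nt (228771228 to 228772178) and a minus region of 835 nt (228772378 to 228773212) were 199 nt apart. Chromosome 17 held 2 convergent pairs of nearly the same layout. In the first, a plus region of 1467 nt (18965231 to 18966697) and a minus region of 407 nt (18967037 to 18967443) were 339 nt apart. In the second, a plus region of 1465 nt (19091337 to 19092801) and a minus region of 402 nt (19093149 to 19093550) were 347 nt apart. Their plus regions started 126106 nt from each other.

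Pairs were found on all 22 chromosomes, with 1.51 ± 0.388 divergent and 1.37 ± 0.558 convergent pairs per 100 regions (SD over 22 chromosomes). Divergent pairs were more numerous on 13 chromosomes, convergent pairs on 8, and chromosome 18 had 4 of each. Chromosome 1 had the most pairs per 100 regions (4.34, from 44 divergent and 54 convergent pairs), and 41 divergent and 39 convergent pairs lay outside its array. That rank rested on the array, without which it had 3.65 pairs per 100 regions, fewer than 4 other chromosomes. Chromosome 5 had 4.19 (29 divergent and 28 convergent pairs). Chromosome 19 had the fewest, 1.48 (6 divergent and 8 convergent pairs). Chromosome 21 had 4 divergent and 0 convergent pairs among 206 regions.

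**Figure D4:**
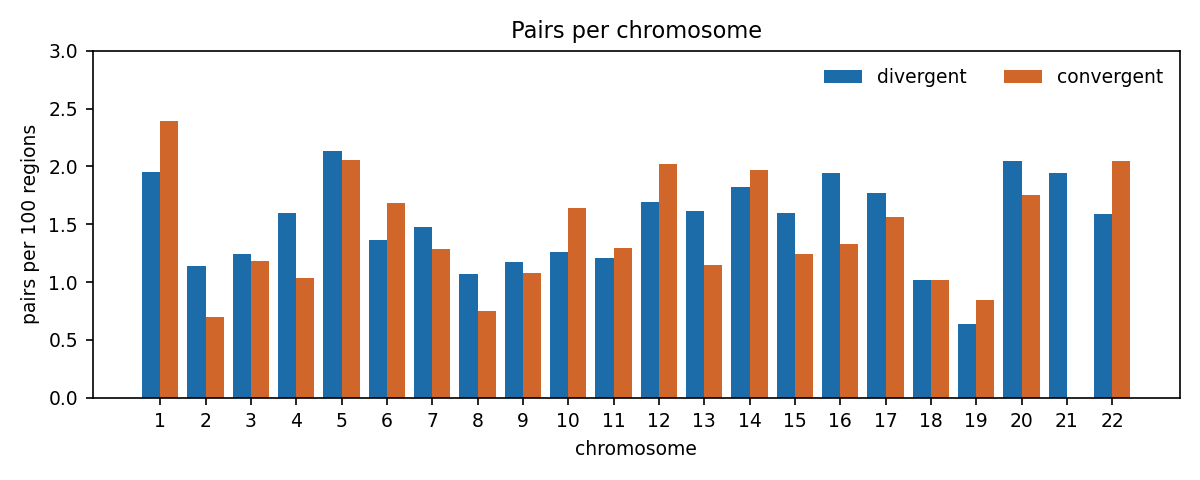
Divergent and convergent pairs per 100 regions on each of chromosomes 1 to 22 (bars start at 0). Divergent pairs range from 0.636 on chromosome 19 to 2.13 on chromosome 5, and convergent pairs from 0 on chromosome 21 to 2.39 on chromosome 1.

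Most pairs stood apart from other pairs. Pairs whose regions lay within 10 kb of each other were joined, which gave 550 loci, and 463 of them held a lone pair, 245 divergent and 218 convergent. Another 76 held 2 pairs, and in 74 of these 1 was divergent and 1 convergent. Of the other 2 loci, 1 held 2 divergent and 1 held 2 convergent pairs. This mix of classes largely follows from the alternation of the 2 kinds of strand change along a chromosome. The 90 regions that belonged to a pair of each class were 45 plus regions and 45 minus regions, lay on 19 chromosomes, and the plus ones had a median length of 248 nt. Each of these regions had a region of the other strand on either side of it within the limit.

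Some pairs lay where runs of regions on the 2 strands met. A further same-strand region within 10 kb of a member, on the side away from its partner, was present on both sides in 24 divergent pairs (7.06%, 4.57 to 10.3%) and 31 convergent pairs (9.45%, 6.51 to 13.1%). It was present on 1 side in 130 divergent pairs (38.2%, 33.0 to 43.6%) and 130 convergent pairs (39.6%, 34.3 to 45.2%). It was absent from both sides in 186 divergent pairs (54.7%, 49.2 to 60.1%) and 167 convergent pairs (50.9%, 45.4 to 56.4%). Such shares per pair were not computed for other neighbours of the list, so they are not known to be particular to these pairs. In divergent pairs the outer side is downstream of each region. A same-strand region lay there for 24.4% of the minus members (19.9 to 29.3%) and 27.9% of the plus members (23.2 to 33.0%), against 32.6% of all minus and 32.9% of all plus regions. In convergent pairs the outer side is upstream, and the shares were 26.8% (22.1 to 32.0%) for minus and 31.7% (26.7 to 37.0%) for plus members, against the same 32.6% and 32.9%.

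The inner side, beyond the partner, was counted in the same way. In divergent pairs it held a same-strand region within 10 kb for 20.3% of minus members (16.1 to 25.0%) and 19.7% of plus members (15.6 to 24.3%), and in convergent pairs for 24.4% of minus members (19.8 to 29.4%) and 24.7% of plus members (20.1 to 29.7%). These intervals overlap those of the outer side for each class and strand. The place of the partner is part of the rule, so the inner side is no independent measure. When same-strand regions within 10 kb were joined into domains, 63.7% of regions in divergent pairs (59.9 to 67.3%) and 61.4% in convergent pairs (57.6 to 65.2%) were alone in theirs, against 54.7% of all regions. Domains of at least 10 regions held 4.56% of regions in divergent pairs (3.12 to 6.41%) and 8.08% in convergent pairs (6.11 to 10.4%), against 8.71% of all regions. Domains take in the inner side as well, so these shares depend in part on the rule and are no independent measure of isolation.

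Over 30% of pairs in both classes had no other region of either strand within 10 kb. There were 123 such divergent pairs (36.2%, 31.1 to 41.5%) and 110 such convergent pairs (33.5%, 28.4 to 38.9%). Their median gaps were 2768 nt in divergent and 2030 nt in convergent pairs. In these pairs 34.1% (25.8 to 43.2%) of the minus regions of divergent pairs and 36.4% (27.4 to 46.1%) of those of convergent pairs had the most common length. Over all minus regions it was 27.0% (26.3 to 27.8%). For plus regions the shares were 8.13% (3.97 to 14.4%) in divergent and 11.8% (6.45 to 19.4%) in convergent pairs, against 8.20% of all plus regions. How often other close neighbours stood alone in this way was not computed.

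Tandem arrangements held the loci with the most pairs, and both of the first 2 were on chromosome 1. The first, from 228742455 to 228782155, held 18 pairs, 3 divergent and 15 convergent, among 33 plus and 32 minus regions in 39.7 kb. Its convergent gaps had a median of 137 nt (lowest 16, highest 430 nt), and 12 of them were among the 45 convergent gaps of up to 250 nt in the whole set (26.7%, 14.6 to 41.9%). The plus regions of these pairs were 457 to 951 nt long (median 764 nt) and the minus regions 234 to 984 nt (median 812 nt), so both medians were well above that of the list, 253 nt. Its divergent gaps were 86, 648 and 814 nt. Another 28 neighbours on opposite strands overlapped in this stretch, so its pairs without overlap were a part of a dense layout on both strands. Regions on the plus strand repeated most closely at 2239 nt (autocorrelation of coverage 0.565) and those on the minus strand at 2238 nt (0.330), among lags from 1500 to 3000 nt.

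The next locus was built quite differently, as single regions on alternating strands at even spacing. It lay from 161413108 to 161439260 and held 7 pairs, 3 divergent and 4 convergent, made of 4 plus regions of 241 to 253 nt and 4 minus regions of 271 to 285 nt. From one plus region to the next the starts were 7366, 7435 and 7356 nt apart, and from one minus region to the next 7382, 7408 and 7394 nt, a mean of 7390 ± 28.9 nt (SD of 6 distances). The divergent gaps were 3384 to 3439 nt and the convergent gaps 3446 to 3477 nt. Each region thus lay close to the middle between its neighbours on the other strand. No region of this locus had the most common length, and no other region of the list lay within it.

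**Figure D5:**
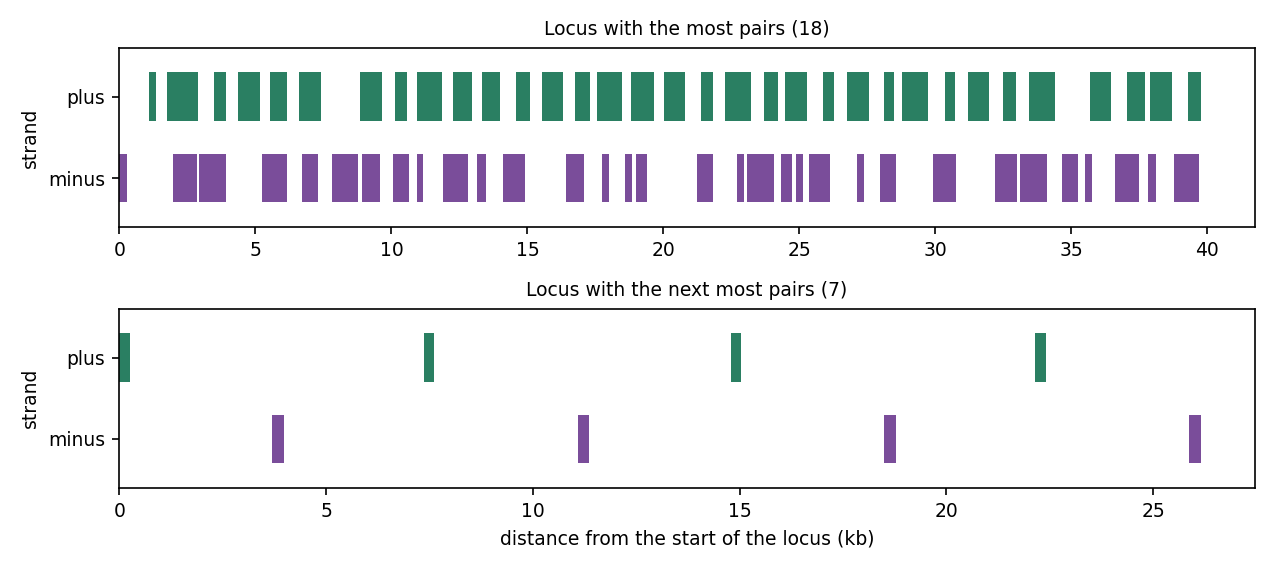
Regions of the 2 loci with the most pairs, both on chromosome 1, by strand and distance from the start of the locus (kb); each block is 1 region, drawn to scale. In the first, 33 plus and 32 minus regions crowd 39.7 kb and many overlap across strands, while in the second 4 plus and 4 minus regions alternate at starts about 7390 nt apart on each strand.

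The other loci with the most pairs were short. On chromosome 1, from 153881836 to 153890022, 3 minus and 2 plus regions alternated as 4 pairs, with divergent gaps of 256 and 3519 nt and convergent gaps of 1484 and 1234 nt. Also on chromosome 1, from 44183182 to 44187114, 2 plus and 2 minus regions made 3 pairs with gaps of 355 nt (convergent), 1286 nt (divergent) and 1364 nt (convergent). On chromosome 12, from 53896825 to 53902024, all 3 pairs were convergent, with gaps of 163, 151 and 1627 nt, since overlapping regions separated them. In all, 8 loci held 3 pairs, and these stand first among them by chromosome name.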

How the data were processed

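The authors deposited 1 list of regions for both replicates, with 0-based starts (printed here 1-based), a strand and a score, which was 1 for every region. The submitters' processing notes name Bowtie and hg19. Not given in the sources used here were the caller of the regions, the filters and whether replicates were pooled first. These steps set region length and the smallest same-strand gap, and so can change gaps and pairs. The most common length was 249 nt.

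Regions on chromosomes 1 to 22 were sorted by start. Adjacent opposite-strand regions with a gap (next start minus previous end) of 0 to 5000 nt were kept. Pairs within 10 kb formed loci. Shares have 95% exact Clopper-Pearson intervals. The pair finder was tested on simulated data. No test was run, since the rule uses the measured positions and the list has no replicates. The members and lists were chosen with earlier results of these data known. Named were, per class, the 5 pairs of smallest gap and of largest summed length, and the 5 loci with most pairs, with ties taken by chromosome name, sorted as text, then start. Gene pairs came from GENCODE 29 on GRCh38, and no coordinates were converted. Planned shares of pairs at gene pairs and the marker and gene lists were not run, for lack of an hg19 annotation here. Python 3.11.15, pandas 2.3.3, scipy 1.17.1 and matplotlib 3.10.9 were used.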

Additional observations from a re-analysis of the deposited data

Results flagged for a closer look

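Chromosome X was outside the rule, and 11 divergent and 13 convergent pairs were found there among 894 regions when the rule was applied to it, 2.68 pairs per 100 regions. The number was flagged because it is a signal in regions not used above. On chromosomes 1 to 22 pairs per 100 regions averaged 2.88 ± 0.809 (SD over 22 chromosomes), so chromosome X lay within that spread. Median gaps on chromosome X were 2208 nt in divergent and 1136 nt in convergent pairs, and the smallest were 299 and 316 nt. The most common length of the list was that of 5 of the 24 minus regions and 1 of the 24 plus regions. A region in 2 pairs is counted in each.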

How the results depend on the processing

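Apart from changes by construction, each value stayed within the limits given below. For median gaps those limits are wider than the difference between the classes. With a gap limit of 2000 nt there were 157 divergent and 171 convergent pairs, with median gaps of 710 and 675 nt. With a limit of 10000 nt there were 561 and 529 pairs, with median gaps of 3932 and 3393 nt. These follow from the limit. Without regions of the most common length there were 230 divergent and 223 convergent pairs, against 340 and 328. These numbers lay only just within the limit of 1.5 times. In that setting the median length in divergent pairs was 258 nt, by construction. The other settings (sorting by midpoint, leaving out regions that overlap the other strand, 1 pair of each class per locus, and each chromosome left out in turn) kept numbers within 1.5 times, medians within 1 SD over chromosomes and shares within their interval. Leaving out the array on chromosome 1, chosen after seeing the data, left 337 divergent and 313 convergent pairs, with median gaps of 2172 and 2007 nt. Shares of region pairs at gene pairs were not computed under any setting, and leaving out a replicate was not possible with 1 list. No paired analysis was possible because the 2 replicates form 1 group with 1 list. Depth is unknown, so weak and strong regions could not be told apart.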

Other observations

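Pairs with nearly the same layout (both lengths and the gap within 10 nt, read in either direction) occurred 29 times among pairs of the same class, 14 times in divergent and 15 times in convergent pairs. In 14 of these all 4 regions were within 10 nt of the most common length of the list. In 4 of them a region was longer than 300 nt. The first joined the 2 convergent pairs of chromosome 17 described above. The second joined divergent pairs on chromosome 1 (151516259 to 151517967) and chromosome 22 (24624233 to 24625938), read in opposite directions, with 1 region of 329 nt in each and a gap of 1131 nt in both. The third joined convergent pairs on chromosome 1 (220230253 to 220231406) and chromosome 10 (22949289 to 22950449), with regions of 230 and 353 nt against 239 and 349 nt and gaps of 571 and 573 nt. The fourth joined convergent pairs on chromosome 7 (56161801 to 56163980) and chromosome 13 (20343647 to 20345823), read in opposite directions, with long regions of 454 and 444 nt and gaps of 1477 and 1476 nt. Whether these stretches share sequence was not tested. Other matches lay within the evenly spaced locus of chromosome 1 described above. All matches were sought among 340 divergent and 328 convergent pairs, which allow very many combinations. How many matches unrelated pairs would give was not computed.

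Distances were set beside genes of another build. They can be compared only where the stretch between has the same length in both builds, which was not checked here. The starts of the plus regions of the 2 pairs on chromosome 17 were 126106 nt apart. In GENCODE 29 on GRCh38 the starts of SNORD3A and SNORD3B-1, plus-strand genes of U3, a small nucleolar RNA used in ribosomal RNA processing, are 126104 nt apart. It was the 1 combination of plus-strand or of minus-strand genes of chromosome 17 with the first 5 characters of the name in common whose distance came within 10 nt. The number of combinations searched is not given here, so this count does not show how rare such a match is. In the array of chromosome 1 the regions repeated at 2239 nt on the plus strand and 2238 nt on the minus strand. The 17 RNA5S genes of chromosome 1, which encode the 5S ribosomal RNA and lie on the minus strand in GENCODE 29, have starts a median of 2241 nt apart. Other measures differed. SNORD3A and SNORD3B-1 are 699 and 758 nt long, against plus regions of 1465 and 1467 nt. RNA5S genes are 119 nt long, against medians of 764 nt (plus) and 812 nt (minus) in the convergent pairs of the array. Successive convergent pairs there started a median of 1795.5 nt apart (821 to 5755 nt). The regions were not assigned to these genes, and the comparison was chosen after the distances were seen.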
